A study of Mus musculus with 6 samples.

Results

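Peroxisome proliferator-activated receptors (PPARs), the genes they are known to control and the genes of lipid droplets were followed in primary mouse hepatic stellate cells given obeticholic acid. The 10 genes were taken by symbol from a table of exon counts for 24940 genes: the receptors Pparg, Ppard and Ppara, the target genes Angptl4, Pdk4 and Lpl, the droplet coat genes Plin2 and Plin3, and the lipolysis genes Pnpla2 and Hilpda. All 10 were in the table, and 9 passed the filter on low counts. RNA was sequenced from 3 libraries of cells treated with 10 µM obeticholic acid (OCA), a bile acid derivative and agonist of the bile acid receptor FXR, and from 3 libraries of cells given the same volume of the solvent dimethyl sulfoxide (DMSO). Cells of both groups came from female C57BL/6JBomTac mice, were treated 2 days after isolation and were harvested after 6 hours. The labels give no ages of the mice and no origin of the replicates A, B and C, so p-values measure only the spread between libraries, which may be technical.

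PPARs are nuclear receptors that bind DNA with the retinoid X receptor and are activated by fatty acids and their derivatives. PPAR-alpha is best known for fatty acid oxidation in hepatocytes, PPAR-gamma for fat storage in adipocytes, and PPAR-delta is found in many tissues. Stellate cells store vitamin A as retinyl esters in lipid droplets and lose these droplets when they turn into myofibroblasts, and PPAR-gamma has been described as a factor of their quiescent state. Perilipins coat the droplets and limit access of lipases to the stored lipid.

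Total counts ranged from 12829226 to 13234570 in OCA libraries and from 12260882 to 16336240 in DMSO libraries. Levels are in CPM, the count of a gene relative to the TMM-adjusted library size, as mean ± SD over n = 3 libraries. Log2 fold changes are OCA over DMSO. A gene was called when the quasi-likelihood test of edgeR gave an adjusted p (Benjamini-Hochberg, over 12687 tested genes) under 0.05. OCA B and DMSO A stood apart from the rest of their groups by transcript length. The median deviation from the group mean of log2 (CPM + 0.5) was higher in the longest than in the shortest eighth of genes by 0.079 in OCA B and by 0.18 in DMSO A, and this difference lay between -0.10 and -0.014 in the other 4 libraries. Results are therefore also given without both libraries, an alternative chosen after the data had been seen. Markers of stellate cells were abundant. The 14 listed markers summed to between 2338 and 2787 CPM in OCA libraries and between 2571 and 2782 CPM in DMSO libraries. In CPM, which is not divided by length, Pdgfrb, Reln and Des were the highest. Among the 14, Vipr1 (log2 fold change 0.76, adjusted p = 2.3e-06) and Lhx2 (0.23, adjusted p = 0.0470) were called higher. Reln (-0.75, adjusted p = 0.0198) and Rgs5 (-0.43, adjusted p = 0.0326) were called lower. Of all tested genes 2.18% were called higher and 3.03% lower. Reln, with a transcript model of 11632 bases, had 489 CPM in OCA B, against 261 and 225 CPM in OCA A and C. These marker calls are from the main fit only. All but Reln were named after their values were seen. The 10 macrophage markers summed to between 8.67 and 8.89 CPM in OCA libraries and between 6.36 and 13.5 CPM in DMSO libraries, and the 6 adipocyte markers to at most 1.42 CPM in OCA and 1.81 CPM in DMSO libraries, with Lep at 0 counts. Alb, the main hepatocyte product, averaged 2.30 CPM in OCA and 2.07 CPM in DMSO libraries, while the hepatocyte list as a whole summed to between 183 and 188 CPM in OCA and between 161 and 187 CPM in DMSO libraries, nearly all of it Ass1, a urea cycle enzyme gene that many other cells also express. The 9 endothelial markers summed to between 2.26 and 3.94 CPM in OCA and between 3.64 and 4.81 CPM in DMSO libraries, with Gpihbp1 and Fcgr2b at 0 counts. The 5 cholangiocyte markers summed to between 4.35 and 5.61 CPM in OCA and between 5.47 and 7.48 CPM in DMSO libraries, with Krt7 and Cftr at 0. Mesothelial markers summed to at most 0.393 CPM in OCA and 0.125 CPM in DMSO libraries, with Gpm6a at 0, and lymphocyte markers to at most 0.192 CPM in OCA and 0.0651 CPM in DMSO libraries, with Ms4a1 and Nkg7 among those at 0. The part of these small fractions in the results was not tested.

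OCA-treated cells had less mRNA of the secreted lipase inhibitor Angptl4 and of the mitochondrial kinase Pdk4 than DMSO-treated cells. Angptl4 fell to 0.681 times and Pdk4 to 0.714 times the DMSO level. Angptl4 was called in all 6 fits that left out 1 library, and Pdk4 in only 2 of the 6. The other 7 tested members did not pass the test. The members, and the gene lists below, were chosen with earlier results of these data known. Shares of all tested genes therefore stand beside them only as a description. Of the 9 tested members 2 were called, against 5.2% of all tested genes. The 2 were lower, a direction with 3.03% of all tested genes, and 0 were higher, a direction with 2.18%. At an unadjusted p under 0.05 there were 3 higher and 3 lower members, against 8.26% higher and 10.7% lower among all tested genes, and DESeq2 and limma-voom each called 0 higher and 2 lower. The median log2 fold change of the 9 was 0.02, with 5 values above 0 and 4 below, and that of all tested genes was 0.00076. OCA and DMSO values had no overlap in 5 of the 9 members, 3 with OCA above and 2 with OCA below, against 23.0% of all tested genes, of which 11.6% had OCA above and 11.3% OCA below. In bulk samples, fewer expressing cells and less RNA per cell cannot be told apart.

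**Figure D1:**
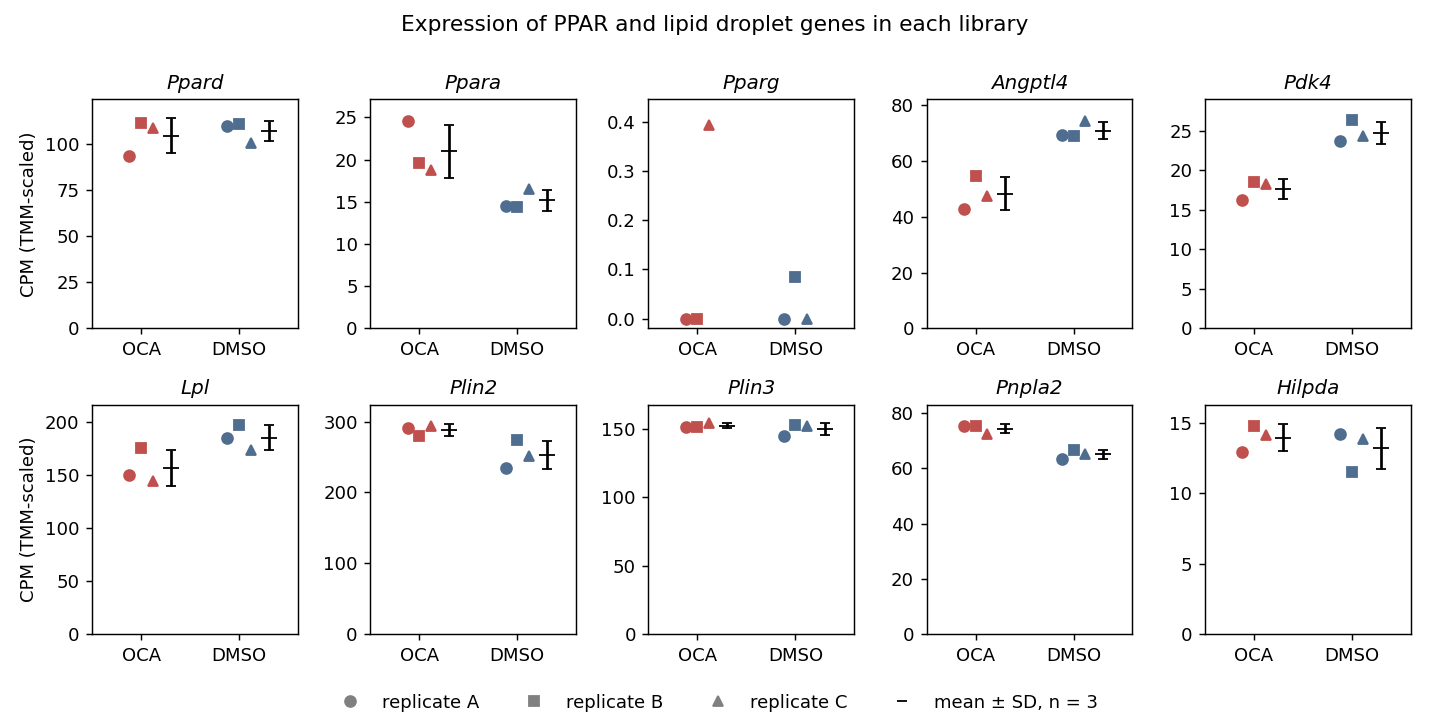
CPM (TMM-scaled) of the 10 genes in each OCA library (red, left) and each DMSO library (blue, right), with replicates A, B and C as circle, square and triangle and black bars for mean ± SD (not drawn for Pparg, which had counts in 2 libraries only). All 3 OCA libraries lie below all 3 DMSO libraries for Angptl4 and Pdk4, and above them for Ppara, Plin2 and Pnpla2.

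Among the receptors, Ppard was the main PPAR transcript of these cells. Ppard, which encodes PPAR-delta (NM_011145, mm10 chr17:28232754-28301469, plus strand), had 93.7, 111 and 109 CPM in OCA A, B and C, against 110, 111 and 101 CPM in DMSO A, B and C. The groups overlapped, with the lowest value in OCA A. The log2 fold change was -0.04 (SE 0.08), with a 95% interval of -0.19 to 0.12.

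Ppara, which encodes PPAR-alpha (NM_011144, chr15:85735776-85806851, plus strand), had 24.6, 19.6 and 18.7 CPM in OCA libraries, against 14.5, 14.4 and 16.6 CPM in DMSO libraries. Every OCA library was above every DMSO library, and OCA A was the highest of all. The log2 fold change of 0.47 (SE 0.14, 95% interval 0.18 to 0.76) did not pass the test, with adjusted p = 0.0579. Of the 6 fits that left out 1 library it passed in 1, without OCA B (0.51, adjusted p = 0.0328), and it was lowest without OCA A (0.34, adjusted p = 0.276). Without both OCA B and DMSO A it was 0.48 and did not pass (adjusted p = 0.0627). With an offset for the trend of counts with transcript length in each library it was 0.60 and passed (adjusted p = 0.0153). Ppara has the longest deposited transcript model of the 10, at 7435 bases. GENCODE gave 3413 exonic bases for it, with an end at 85802819. The length offset and levels per kilobase used the deposited length.

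Pparg, which encodes PPAR-gamma (NM_011146, chr6:115422066-115490401, plus strand), was close to undetected. It had 5 counts in OCA C and 1 count in DMSO B, and 0 counts in the other 4 libraries. The depth-scaled ratio of OCA to DMSO sums was 5.61, with an exact 95% counting interval of 0.628 to 265, so no change was detectable at this depth. A floor of 3 counts over a group corresponds to 0.0767 CPM in OCA and 0.0683 CPM in DMSO libraries. These limits cover counting error alone. The gene did not pass the filter on low counts, and in a fit without that filter its adjusted p was 0.67. The table's model starts at the most downstream of 3 Pparg starts in RefSeq, so reads from first exons of the upstream starts are outside it.

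Levels of the members were compared with each other only per length. Marker genes and list genes were ordered by CPM, which is not divided by length. Counted per kilobase of exon, Ppard made up 89.8%, 93.0% and 92.5% of PPAR transcripts in OCA A, B and C, against 94.6%, 94.6% and 93.4% in DMSO A, B and C. The mean share was 91.8% ± 1.69 in OCA and 94.2% ± 0.699 in DMSO libraries (SD, n = 3 each), a difference of -2.43 percentage points. The groups did not overlap, and the exact two-sided permutation test gave p = 0.1, the smallest that 3 against 3 libraries allow. Nearly all of the remainder was Ppara, which had no overlap between groups on its own, so the share adds no separate evidence.

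The retinoid X receptors and coregulators that work with PPARs were tested as a list of 17 genes, 15 of which passed the filter. Of these 1 rose, 1 fell and 13 did not pass, with a median log2 fold change of -0.10 and 11 of the 15 values below 0. At an unadjusted p under 0.05 there were 1 higher and 5 lower, and DESeq2 and limma-voom each called 1 higher and 1 lower. Medians and counts above or below 0 in the lists are from the main fit, without the length trend and with OCA B and DMSO A. Several coregulators have transcripts of more than 5780.5 bases, the longest eighth of tested genes, where DMSO A stood highest. The part of this in the list was not tested. Each list stands beside all tested genes, of which 2.18% were called higher and 3.03% lower, 8.26% were higher and 10.7% lower at an unadjusted p under 0.05, and 50.2% were above 0. Rxra, the retinoid X receptor alpha, rose by a log2 fold change of 0.24 (adjusted p = 0.0487). It did not pass when any single OCA library, or either DMSO A or C, was left out (adjusted p between 0.0537 and 0.184), nor without both OCA B and DMSO A (adjusted p = 0.146). Pprc1, a coactivator related to PGC-1, fell to 61.5 ± 6.65 CPM in OCA libraries, against 77.0 ± 6.42 CPM in DMSO libraries (log2 fold change -0.33, adjusted p = 0.0326). It did not pass when either OCA A or C, or either DMSO A or C, was left out (adjusted p between 0.0953 and 0.186), nor with the length trend (adjusted p = 0.0531). Ppargc1a, the PGC-1alpha gene, named after its values were seen, had 2 counts over the OCA and 5 over the DMSO libraries.

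Among the target genes, Angptl4 had the smallest p of all members. Angptl4 encodes a secreted protein that inhibits lipoprotein lipase and is a target of all PPARs and of hypoxia-inducible factors (NM_020581, chr17:33774900-33781575, minus strand). It had 42.9, 54.8 and 47.4 CPM in OCA A, B and C, against 69.4, 69.1 and 74.5 CPM in DMSO A, B and C. Every OCA library was below every DMSO library, and OCA B was the nearest to the DMSO group. The log2 fold change was -0.55 (SE 0.09, 95% interval -0.74 to -0.37, adjusted p = 0.000563), the 97th smallest p of all tested genes. Angptl4 was called under all 18 alternatives, with log2 fold changes between -0.67 and -0.47, the lowest of them without both OCA B and DMSO A.

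Pdk4 encodes a kinase that inhibits the pyruvate dehydrogenase complex and so spares glucose when fatty acids are burned (NM_013743, chr6:5483351-5496278, minus strand). It had 16.2, 18.6 and 18.2 CPM in OCA libraries, against 23.7, 26.3 and 24.3 CPM in DMSO libraries. The 3 OCA values lay below the 3 DMSO values. The log2 fold change was -0.48 (SE 0.12, 95% interval -0.73 to -0.24, adjusted p = 0.0219). The test was no longer passed without OCA A (adjusted p = 0.0906), OCA C (adjusted p = 0.0525), DMSO B (adjusted p = 0.0771) or DMSO C (adjusted p = 0.0618), while the log2 fold change stayed between -0.52 and -0.43 in all 6 fits that left out 1 library. Without both OCA B and DMSO A it was -0.55 (adjusted p = 0.0116).

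Lpl, lipoprotein lipase, frees fatty acids from circulating triglycerides and is the enzyme that Angptl4 inhibits (NM_008509, chr8:68880555-68906932, plus strand). It had 150, 176 and 145 CPM in OCA libraries, against 185, 198 and 174 CPM in DMSO libraries. OCA B was above DMSO C, so the groups overlapped, while OCA A and OCA C were below all DMSO libraries. The log2 fold change of -0.24 (SE 0.08, 95% interval -0.40 to -0.08) did not pass the test (adjusted p = 0.0751). It was -0.33 and passed without OCA B (adjusted p = 0.00367) and without both OCA B and DMSO A (adjusted p = 0.000536), the second chosen after the data had been seen. It did not pass in the other 5 fits that left out 1 library, where it was nearest to 0 without OCA C (-0.19, adjusted p = 0.306).

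**Figure D2:**
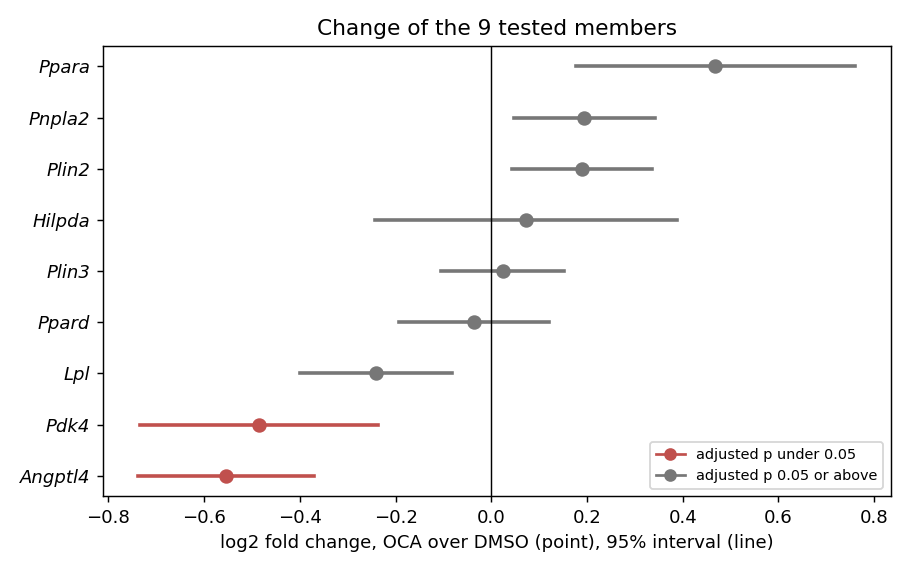
Log2 fold change of OCA over DMSO for the 9 tested members (points) with 95% intervals (lines), ordered by value, with genes that passed the test in red. Angptl4 at -0.55 and Pdk4 at -0.48 are the 2 called genes, and Hilpda has the widest interval.

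RefSeq promoter sequences of build GRCm38.p6 were matched for 8 of the 10 members, all but Angptl4 and Lpl, with 3 windows for Pparg and 2 for Hilpda. Each window was the 250 bases before a transcription start, read in the direction of transcription. The windows of 3 genes are shown: Pdk4 as the called gene with a window, Plin2 as the most abundant member, and Hilpda as a hypoxia-induced gene with the hypoxia core motif near its counted start. Capitals mark motif matches. The windows are chr6:5496279-5496528 on the minus strand for Pdk4, chr4:86670060-86670309 on the minus strand for Plin2 and chr6:29272376-29272625 on the plus strand for Hilpda.
Pdk4: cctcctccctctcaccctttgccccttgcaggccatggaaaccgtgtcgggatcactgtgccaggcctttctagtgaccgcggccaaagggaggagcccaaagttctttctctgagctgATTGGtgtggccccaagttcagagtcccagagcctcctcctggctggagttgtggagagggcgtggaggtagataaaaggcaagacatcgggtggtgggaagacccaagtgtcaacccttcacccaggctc
Plin2: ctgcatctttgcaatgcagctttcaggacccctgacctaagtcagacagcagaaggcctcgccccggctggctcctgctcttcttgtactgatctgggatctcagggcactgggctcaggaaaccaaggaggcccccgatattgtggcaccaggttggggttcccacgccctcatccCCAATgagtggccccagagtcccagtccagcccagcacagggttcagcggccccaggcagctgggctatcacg
Hilpda: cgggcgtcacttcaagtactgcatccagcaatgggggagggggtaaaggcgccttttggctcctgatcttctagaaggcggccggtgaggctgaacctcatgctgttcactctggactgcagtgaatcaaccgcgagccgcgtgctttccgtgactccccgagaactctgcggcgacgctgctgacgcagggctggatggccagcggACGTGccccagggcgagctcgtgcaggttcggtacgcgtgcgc
Both strands of the 11 windows were searched for exact matches. The PPAR element, the half-site AGGNCA repeated in the same direction after 1 spacer base, was in none of them and in 0.338% of 32851 promoter windows of the same length. The FXR element, AGGNCA followed after 1 spacer base by its reverse complement TGNCCT, was in none of them and in 0.0852% of all windows, and the FOXO element GTAAACA was in none of them and in 3.17% of all windows. The hypoxia core ACGTG was in the Hilpda window shown, starting 43 bases before the start, and in the Ppard window, and in 16.6% of all windows. The CCAAT box, searched as CCAAT, was in the windows shown for Pdk4 and Plin2 and in those of Plin3, Ppard and 2 of the Pparg starts, and in 33.8% of all windows. The TATA box TATAAA was in 1 Pparg window and in 12.4% of all windows. No searched motif overlapped another in these windows. A match is a description of the letters, and distal elements are outside these windows.

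The other PPAR target genes, a list of 40 that covers fatty acid oxidation, fatty acid binding and thermogenesis, had 26 tested members. Of these 1 rose, none fell and 25 did not pass, with a median log2 fold change of 0.08. At an unadjusted p under 0.05 there were 6 above and 1 below 0, against 8.26% and 10.7% of all tested genes, and 19 of the 26 values were above 0, against 50.2% of all tested genes. DESeq2 called 1 higher and 1 lower, the second being Txnip, an inhibitor of thioredoxin and glucose uptake named after its values were seen, and limma-voom called 1 higher and 0 lower. Acaa2, the mitochondrial thiolase of the last step of beta-oxidation, rose to 191 ± 13.9 CPM in OCA libraries, against 152 ± 7.03 CPM in DMSO libraries (log2 fold change 0.33, adjusted p = 0.00741). Acaa2 did not pass without OCA A (adjusted p = 0.0635). Among those below the filter were Fabp1, Fabp3, Fabp4, Adipoq, Cidec, Plin1, Plin4, Plin5, Cyp4a10, Cyp4a14, Fgf21, Vnn1 and Ucp3.

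Among droplet coat genes, Plin2 was the most abundant member in both groups. Plin2 encodes perilipin 2, the coat protein of droplets in most cells other than fat cells (NM_007408, chr4:86656565-86670059, minus strand). It had 291, 279 and 294 CPM in OCA libraries, against 234, 274 and 251 CPM in DMSO libraries. Every OCA value was above every DMSO value, though OCA B and DMSO B were close. The log2 fold change of 0.19 (SE 0.07, 95% interval 0.04 to 0.34) did not pass the test (adjusted p = 0.136). Without DMSO B it was 0.25 and passed (adjusted p = 0.0428). It did not pass in the other 5 fits that left out 1 library, where it was lowest without DMSO A (0.14, adjusted p = 0.446), nor without both OCA B and DMSO A (0.16, adjusted p = 0.32).

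Plin3, which encodes perilipin 3, a coat protein that moves between cytosol and newly formed droplets (NM_025836, chr17:56278962-56290511, minus strand), had 152, 151 and 154 CPM in OCA libraries, against 145, 153 and 152 CPM in DMSO libraries. The groups overlapped. Its log2 fold change was 0.02 with a 95% interval of -0.11 to 0.15.

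Plin1, Plin4 and Plin5 had at most 11 counts each over a group. Counted per kilobase, Plin2 made up 68.8%, 67.8% and 68.6% of perilipin transcripts in OCA A, B and C, against 64.9%, 67.2% and 65.4% in DMSO A, B and C. The mean share was 68.4% ± 0.481 in OCA and 65.8% ± 1.20 in DMSO libraries (SD, n = 3 each). The groups did not overlap, and the exact two-sided permutation test gave p = 0.1, the smallest possible here. Plin2 had no overlap between groups on its own, so this share adds no separate evidence either. The wider list of droplet coat and biogenesis genes had 16 tested members of 23, none of which passed the test, with log2 fold changes between -0.26 and 0.23 and a median of -0.03. Of the 16, 2 had an unadjusted p under 0.05, and DESeq2 and limma-voom called 0. Its tested members with the highest CPM were the droplet GTPase gene Rab18 and Aup1. Rab18 had 170 ± 8.98 CPM in OCA and 175 ± 7.92 CPM in DMSO libraries. Aup1 had 146 ± 6.54 CPM in OCA and 136 ± 13.2 CPM in DMSO libraries.

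Of the lipolysis genes, Pnpla2 encodes adipose triglyceride lipase, which takes the first fatty acid from a stored triglyceride (NM_001163689, chr7:141455188-141460743, plus strand). It had 75.5, 75.3 and 72.5 CPM in OCA libraries, against 63.4, 66.6 and 65.4 CPM in DMSO libraries. The groups did not overlap and the spread within each was small. The log2 fold change of 0.19 (SE 0.07, 95% interval 0.05 to 0.34) did not pass the test (adjusted p = 0.126).

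Hilpda encodes a small hypoxia-induced droplet protein that inhibits adipose triglyceride lipase (NM_023516, chr6:29272626-29275449, plus strand). It had 12.9, 14.8 and 14.2 CPM in OCA libraries, against 14.2, 11.5 and 13.9 CPM in DMSO libraries. The groups overlapped, and the log2 fold change was 0.07 with a 95% interval of -0.24 to 0.39. This interval is the widest among the 9 tested members, and Hilpda has the fewest counts of them.

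The list of lipolysis genes and cofactors had 9 tested members, none of which passed the test, with a median log2 fold change of -0.05. Among the 9, 1 had an unadjusted p under 0.05, and DESeq2 and limma-voom called 0. Mgll, which encodes the lipase of the last step of lipolysis, had 263 ± 10.3 CPM in OCA and 242 ± 9.45 CPM in DMSO libraries, and the lysosomal acid lipase gene Lipa had 186 ± 14.9 CPM in OCA and 174 ± 6.47 CPM in DMSO libraries. For 4 pairs chosen after the data had been seen, the ratio of a member to another gene or of another gene to a member was computed per kilobase, as a description. G0s2, an inhibitor of adipose triglyceride lipase, stood to Pnpla2 at 1.61 ± 0.0600 in OCA and 2.18 ± 0.141 in DMSO libraries. Abhd5, the coactivator of the same lipase, stood to Pnpla2 at 1.21 ± 0.0876 in OCA and 1.43 ± 0.0351 in DMSO libraries. Angptl4 stood to Lpl at 0.656 ± 0.0454 in OCA and 0.818 ± 0.0839 in DMSO libraries. Pdk4 stood to the sum of Pdk1, Pdk2 and Pdk3 at 0.214 ± 0.0272 in OCA and 0.319 ± 0.0166 in DMSO libraries. All 4 ratios were lower in every OCA library than in every DMSO library. Angptl4, Pdk4 and Pnpla2 had no overlap between groups on their own, so the ratios add no separate evidence.

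Per kilobase of exon, the order of the members in OCA libraries was Plin2, Plin3, Lpl, Ppard, Pnpla2, Angptl4, Hilpda, Pdk4, Ppara and Pparg. In DMSO libraries Angptl4 was at rank 4, above Ppard and Pnpla2, and the other genes kept their order. Plin2 was at 153 ± 4.24 CPM per kilobase in OCA and 135 ± 10.6 in DMSO libraries, and Ppara at 2.82 ± 0.425 in OCA and 2.04 ± 0.163 in DMSO libraries. Angptl4 was at 25.5 ± 3.17 CPM per kilobase in OCA and 37.5 ± 1.59 in DMSO libraries. Within a group, the ranges of neighbours in the order overlapped only for Pnpla2 and Angptl4 in OCA libraries. The lengths are those of the deposited transcript models. GENCODE gave 3413 exonic bases for Ppara, 3308 for Angptl4 and 3645 for Plin3, against deposited lengths of 7435, 1894 and 2149. The other members differed less. The order and shares with GENCODE lengths were not computed.

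**Figure D3:**
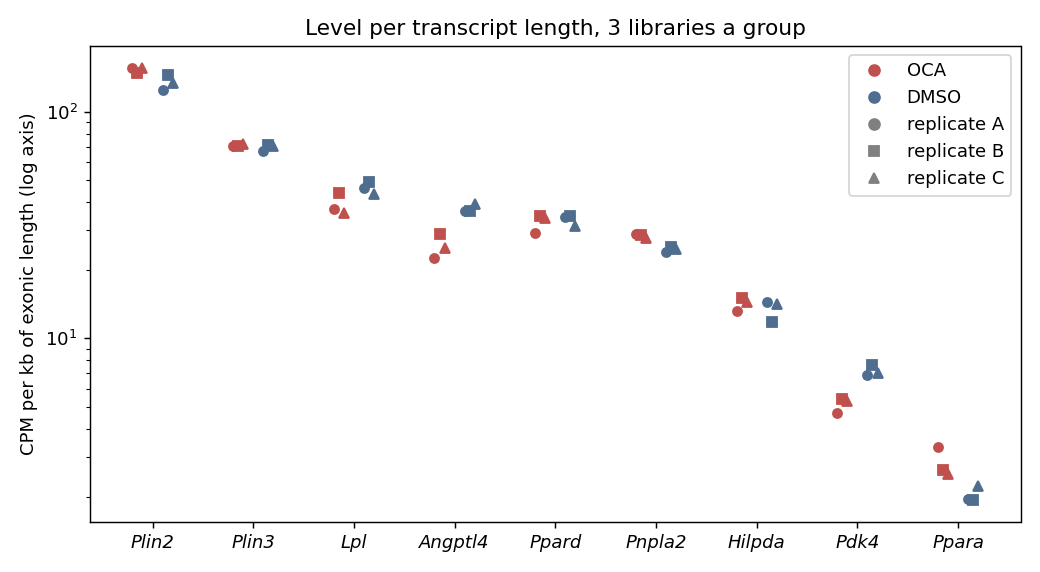
CPM per kilobase of exonic length on a log axis for 9 members, with OCA libraries in red to the left of DMSO libraries in blue. Pparg is left out since it had counts in 2 libraries only. Plin2 is the highest and Ppara the lowest in both groups, and Angptl4 lies below Ppard in OCA and above it in DMSO libraries.

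Genes that make stored lipid were counted from a list of 21 in triglyceride and ester synthesis, 20 of them tested. Of these 1 rose, 1 fell and 18 did not pass, with a median log2 fold change of 0.09. With unadjusted p under 0.05 there were 3 above and 2 below 0, and DESeq2 and limma-voom each called 1 higher and 1 lower. Gpam, the mitochondrial enzyme that starts glycerolipid synthesis, fell to 91.5 ± 8.52 CPM in OCA libraries, against 132 ± 5.95 CPM in DMSO libraries (log2 fold change -0.53, SE 0.07, adjusted p = 0.000125). Lpin2, a phosphatidate phosphatase, rose to 132 ± 10.5 CPM in OCA libraries, against 108 ± 8.36 CPM in DMSO libraries (adjusted p = 0.0309). Lpin2 did not pass when either OCA A or B, or either DMSO A or B, was left out (adjusted p between 0.0729 and 0.129), nor without both OCA B and DMSO A (adjusted p = 0.107).

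Of 23 genes for lipoprotein lipase handling and lipid uptake, 16 were tested, 1 rose and none fell, with a median log2 fold change of -0.03. At an unadjusted p under 0.05 there were 3 above and 3 below 0, DESeq2 called 1 higher and 0 lower, and limma-voom called 1 higher and 1 lower, the lipoprotein receptor gene Lrp1, named after its values were seen. The gene that rose was Lipg, endothelial lipase, a relative of Lpl that acts mainly on phospholipids. Lipg had 8.86, 13.5 and 8.64 CPM in OCA libraries, against 3.05, 5.27 and 3.71 CPM in DMSO libraries. The lowest OCA value was above the highest DMSO value, and the log2 fold change was 1.39 (SE 0.25, adjusted p = 0.00243). Without both OCA B and DMSO A it was 0.97 (adjusted p = 0.0237), the lowest of all alternatives. Gpihbp1, the endothelial anchor of lipoprotein lipase, had 0 counts in all 6 libraries.

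The pyruvate dehydrogenase system, on which Pdk4 acts, had 13 tested members of 13, and none passed the test, with 0 at an unadjusted p under 0.05 and 0 called by DESeq2 or limma-voom. Their log2 fold changes lay between -0.13 and 0.18, with a median of 0.01. Its highest members in CPM were Pdha1, which encodes a subunit of the first enzyme of the complex, and Dlat, which encodes the second enzyme. Pdha1 had 331 ± 6.44 CPM in OCA and 330.4 ± 20.1 CPM in DMSO libraries. Dlat had 145 ± 5.85 CPM in OCA and 148 ± 2.60 CPM in DMSO libraries. The hypoxia response list, included because Hilpda, Angptl4 and Plin2 are known hypoxia targets, had 26 tested members, 1 of them higher and none lower by all 3 tools, with 3 above and 1 below 0 at an unadjusted p under 0.05 and a median log2 fold change of 0.0027. Egln1, an oxygen-sensing prolyl hydroxylase, rose to 268 ± 3.30 CPM in OCA libraries, against 222 ± 13.2 CPM in DMSO libraries (adjusted p = 0.0216). Egln1 did not pass when either OCA A or C, or either DMSO A or C, was left out (adjusted p between 0.0701 and 0.108), nor without both OCA B and DMSO A (adjusted p = 0.0806).

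FOXO factors and their target genes were listed because Pdk4 and Pnpla2 are known FOXO targets. Of 13 tested members 2 fell and none rose by all 3 tools, with a median log2 fold change of -0.05, against 3.03% of all tested genes called lower and 2.18% called higher. At an unadjusted p under 0.05 there were 3 below and 0 above 0, against 10.7% and 8.26% of all tested genes. Trib1, a pseudokinase, fell to 32.1 ± 1.25 CPM in OCA libraries, against 45.0 ± 2.77 CPM in DMSO libraries (log2 fold change -0.49, adjusted p = 0.00275). Insr, the insulin receptor gene, fell to 43.4 ± 2.89 CPM in OCA libraries, against 56.0 ± 6.64 CPM in DMSO libraries (adjusted p = 0.0268). Insr did not pass when either OCA A or C, or either DMSO A or B, was left out (adjusted p between 0.0625 and 0.189), nor with the length trend (adjusted p = 0.182). The median of each list stands beside a median of 0.00076 for all tested genes.

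**Figure D4:**
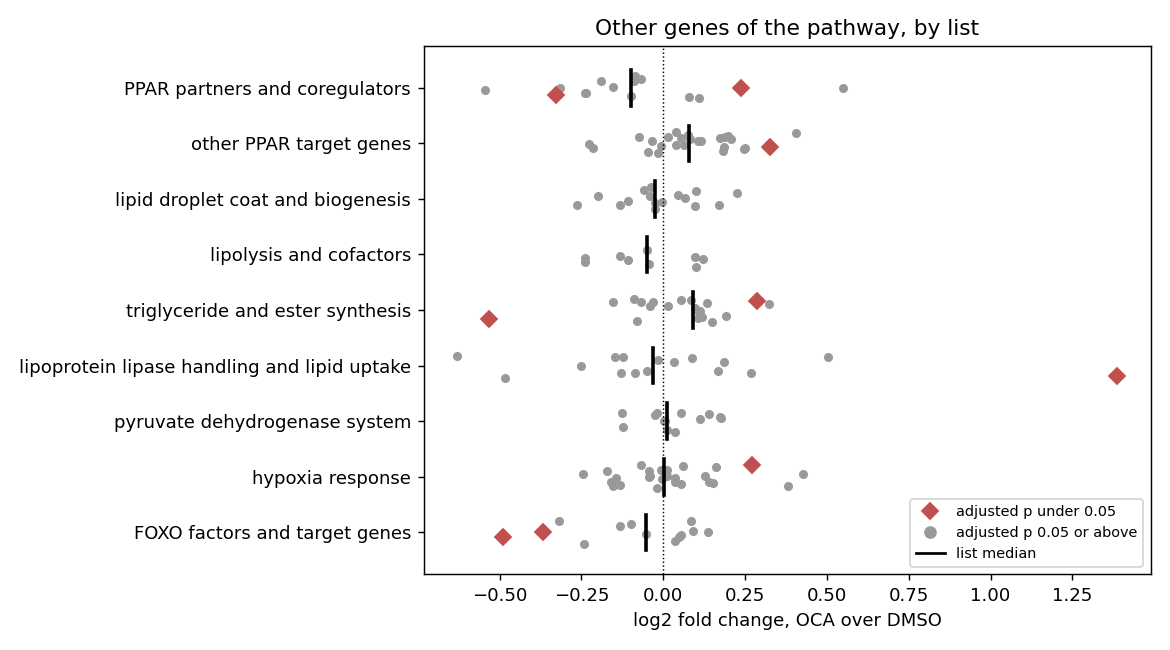
Log2 fold change of OCA over DMSO for each tested gene of the 9 pathway lists (grey points), with called genes as red diamonds and list medians as black bars. The medians lie between -0.10 and 0.09, and Lipg at 1.39 stands farthest from 0.

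Profiles over the 6 libraries were compared for the 2 called members, as the root mean square difference of log2 (CPM + 0.5) after each gene was centred on its own mean, among genes with a mean of at least 5 CPM. The comparison covered 10734 genes and is a description. The nearest to Angptl4 were Slc25a37, a mitochondrial iron importer (0.045), Dock4, an activator of Rac (0.058), and Sulf1, an extracellular heparan sulfate sulfatase (0.065). The nearest to Pdk4 were the ubiquitin ligase gene Trim56 (0.033), 2810021J22Rik (0.049) and Fmr1, which encodes an RNA-binding protein (0.052). Pdk4 stood 27th in nearness to Angptl4, with a difference of 0.095, and Lpl stood 596th. Nearness includes the difference between the groups, so a lower level of the nearest genes in OCA libraries follows from how they were picked. Their calls are no separate evidence. Of these nearest genes, Slc25a37 (log2 fold change -0.55, adjusted p = 0.00723) and Fmr1 (-0.43, adjusted p = 0.000529) were called whichever library was left out. Dock4 (log2 fold change -0.57, adjusted p = 0.0111) did not pass without OCA A (adjusted p = 0.0602) or OCA C (adjusted p = 0.0542). Trim56 (log2 fold change -0.44, adjusted p = 0.0162) did not pass without OCA A (adjusted p = 0.0808), DMSO A (adjusted p = 0.0502) or DMSO B (adjusted p = 0.0717). Sulf1 (adjusted p = 0.0822) and 2810021J22Rik (adjusted p = 0.0932) were not called, and Sulf1 passed without OCA B (adjusted p = 0.0263).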

How the data were processed

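The authors deposited 1 table of exon counts, described as unadjusted per the file headers, with 24940 genes and, for each, 1 RefSeq transcript, its exonic length and its position in mm10. Per the submitters' processing notes the tools were STAR and HOMER and the build mm10. Tool versions, the strand setting and the treatment of multiply mapped reads were not given in the sources used here. Deposited counts came in steps of 0.5, between 26.5% and 29.8% of them not whole, and were treated as estimated counts and rounded (ties to even) for count tests. CPM and sums kept the steps. Columns were matched to samples by title, and 3 counts equal between 0.184 and 0.245 CPM per library. Replicates differed beyond counting noise, with chi-square over degrees of freedom of 4.30 to 7.78 for pairs within a group.

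Tests were run in R 4.3.3 with edgeR 4.0.16 (filterByExpr, calcNormFactors with TMM, glmQLFit, glmQLFTest), two-sided, without a replicate block. The SE is the absolute log2 fold change divided by the square root of F, and 95% intervals use the test's degrees of freedom. DESeq2 1.42.0, limma-voom (limma 3.58.1), other scalings and filters, a block, robust estimation, a loess offset on transcript length and leaving out libraries were alternatives. The members and lists were chosen with earlier results of these data known. Named genes are the members, up to 4 called genes of each list by smallest p (with none called, up to 2 by mean CPM), and the 3 nearest profiles of each called member. Outside this rule are genes marked in the text as chosen after seeing values, the genes in ratios and genes listed as below the filter. Older and newer symbols of 1 gene in a list were counted once. Some list members are not reported here by name.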

Additional observations from a re-analysis of the deposited data

How the results depend on the processing

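Angptl4 and Pnpla2 kept their direction and their side of the threshold under all 18 alternatives. Of the 9 tested members, 0 were called higher and 2 lower, and 1 was called higher without the low count filter, with the length trend, without OCA B (Ppara each time) and without DMSO B (Plin2). Leaving out single libraries gave 0 to 1 higher and 1 to 3 lower members, with Pdk4 at -0.52 to -0.43. Ppara passed at 0.46 (no low count filter) and 0.60 (length trend). Lpl passed, and made 3 lower members, at -0.25 (library totals only, adjusted p = 0.0416), -0.25 (no low count filter, adjusted p = 0.0112) and -0.33 (without OCA B and DMSO A). With single libraries left out, Ppara ranged from 0.34 to 0.54, Plin2 from 0.14 to 0.25 and Lpl from -0.33 to -0.19, and each passed in 1 of 6 fits. With the replicate block, Lpl was at -0.25 and passed (adjusted p = 0.0240), and no other member's call changed. Values near 0 that changed sign were Plin3 at -0.0098 and Hilpda at -0.017 with the length trend; with single libraries left out Plin3 ranged from -0.0015 to 0.039, Hilpda from -0.011 to 0.13 and Ppard from -0.084 to 0.037. Of the list genes named with values near 0, Dlat was at 0.0072 with the length trend, and Pdha1 at -0.0061 (upper quartile scaling), -0.0027 (library totals only), -0.0017 (no low count filter), -0.0037 (length trend), -0.019 (without OCA B and DMSO A) and -0.031 to 0.054 with single libraries left out. The causes were not tested.

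Over all genes, 276 were called higher and 384 lower. The lower count was 703 with no low count filter, 227 with the length trend and 605 without OCA B and DMSO A, where 339 were higher. Without single libraries 161 to 363 were higher and 104 to 758 lower. The share of calls that were higher was 41.8%, 60.6% with the length trend and 32.4% to 64.9% without single libraries. The block gave 306 higher and 508 lower genes. The labels state no pairing, so the letters were not taken as pairs. Deviations of libraries with the same letter correlated at 0.00051, -0.043 and 0.054 over genes, and those with different letters at -0.080 to 0.080. The Ppard share of PPAR transcripts differed by -4.46 percentage points on raw counts, against -2.43 per kilobase, because Ppara has the longer deposited transcript model. Pparg gives no log2 fold change here, as its 6 counts limit it.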
